A study of Mus musculus with 5 samples.

Results

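α- and β-tubulin are the subunits of the microtubule, and 10 of their genes were read here across 5 RNA-Seq libraries of mouse neural stem/progenitor cells (NSPCs). The members were taken by symbol and are 4 α-tubulin genes (*Tuba1a*, *Tuba1b*, *Tuba1c* and *Tuba4a*) and 6 β-tubulin genes (*Tubb2a*, *Tubb2b*, *Tubb3*, *Tubb4b*, *Tubb5* and *Tubb6*), of 12588 genes in all. The libraries came from C57BL/6J cells grown in proliferation medium with EGF and FGF-2 (20 ng/ml of each) and no treatment. There were 2 libraries labelled WT (replicates 1 and 4, p75NTR+/+ litter mates) and 3 labelled p75NTR-/- (replicates 1, 2 and 4), the latter from mice that lack the p75 neurotrophin receptor in every cell type. The labels give E12.5 embryos as the source, whereas the methods of the study describe cultures from the adult subventricular zone. The study describes independent cell preparations, and whether animals were pooled for a preparation is not given in the sources used here.

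Each library had between 11688211 and 14452396 recovered counts. All 9 neural progenitor markers were measured, from *Fabp7*, a fatty acid binding protein of radial glia, at a mean of 6627 TPM (transcript abundance corrected for length and depth), down to *Prom1* at 0.76 TPM. *Ngfr*, which encodes p75NTR, went against the labels, with 0.98 and 2.08 normalized counts in the libraries labelled WT and 9.89, 140.6 and 251.4 in those labelled p75NTR-/-. The deposited value covers the whole transcript, so a transcript that lacks a targeted exon cannot be told from an intact one. This limit concerns the libraries labelled p75NTR-/-, not the low values under the WT label. The study reports p75NTR in its cultured NSPCs, and whether the labels are right was not tested. The groups are therefore named by their labels, and each direction below is one between labels. Differences are changes in log2(normalized count + 1), fitted with limma over all 12588 gene sums. Normalized counts are reads scaled by a size factor for each library, and a gene sum adds the listed transcripts of a gene. A called gene had a mean of 50 or more normalized counts, changed 1.5-fold or more, and kept p under 0.05 after Benjamini-Hochberg adjustment.

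A microtubule is a hollow polymer of α/β-tubulin dimers that grows and shrinks at its ends, carries cargo in the cell, builds the mitotic spindle and steers the leading process of a migrating cell. The genes of each subunit encode isotypes that are nearly alike in the globular body and differ most in the acidic tail at the carboxyl end, the site of detyrosination, glutamylation and other modifications. *Tuba1a*, *Tubb2b* and *Tubb3* are known from the developing brain, where *Tubb3* serves as a marker of neurons, while *Tuba1b*, *Tubb5*, *Tubb4b* and *Tubb6* are made in many tissues. Cells also lower tubulin mRNA when free tubulin rises, a loop in which TTC5 binds the first residues of the nascent tubulin chain.

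Each of the 10 genes is listed with a single transcript, and all have 4 exons. *Tuba1b*, *Tuba1a* and *Tuba1c* lie close together on chromosome 15 of GRCm38 (98931425 to 98934565, 98949837 to 98953703 and 99029891 to 99038110), and *Tubb2a* and *Tubb2b* neighbour each other on chromosome 13 (34074274 to 34078007 and 34126748 to 34130466) with 48.7 kb between them. *Tuba4a* lies on chromosome 1 (75214228 to 75219865), *Tubb4b* on chromosome 2 (25222160 to 25224702), *Tubb3* on chromosome 8 (123411424 to 123422015) and *Tubb5* on chromosome 17 (35833921 to 35838306).

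How far reads can be told apart differs between the members. The coding sequence of *Tuba1a* is 98.3% identical to that of *Tuba1b* and 97.6% identical to that of *Tuba1c*, but 85.3% identical to that of *Tuba4a*. That of *Tubb2a* is 96.5% identical to that of *Tubb2b*, while every other pair of β-tubulin genes lies between 80.8% and 86.5%. The end of the coding sequence, which encodes the tail, shows this in 7 of the listed transcripts. The last 60 bases up to and including the stop codon are given below from the GENCODE M21 transcripts, 5′ to 3′ on the strand of the gene, and capitals mark bases that lie in no 31-base word shared with a transcript of another gene.
Tuba1c (chr15:99037950-99038009, plus strand): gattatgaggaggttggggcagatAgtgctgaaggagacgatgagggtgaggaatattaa
Tuba4a (chr1:75215622-75215681, minus strand): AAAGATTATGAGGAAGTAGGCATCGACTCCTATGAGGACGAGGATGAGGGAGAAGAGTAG
Tubb2a (chr13:34074468-34074527, minus strand): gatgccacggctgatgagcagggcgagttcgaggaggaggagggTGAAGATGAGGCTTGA
Tubb2b (chr13:34127471-34127530, minus strand): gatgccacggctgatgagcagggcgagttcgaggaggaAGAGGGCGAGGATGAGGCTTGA
Tubb3 (chr8:123421623-123421682, plus strand): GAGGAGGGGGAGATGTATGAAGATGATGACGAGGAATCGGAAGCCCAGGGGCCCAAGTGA
Tubb4b (chr2:25222308-25222367, minus strand): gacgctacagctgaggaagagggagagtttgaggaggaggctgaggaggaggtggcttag
Tubb5 (chr17:35834982-35835041, minus strand): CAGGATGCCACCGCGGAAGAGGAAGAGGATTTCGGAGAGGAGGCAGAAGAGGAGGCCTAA

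The last codon before the stop is TAT in *Tuba1c*, a codon for tyrosine, the residue that detyrosinating enzymes remove. In *Tuba4a* it is GAG, so this α-tubulin is made without the terminal tyrosine. In *Tubb4b*, 0 of these 60 bases were free of shared words, whereas all 60 were in *Tuba4a*, *Tubb3* and *Tubb5*.

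**Figure D1:**
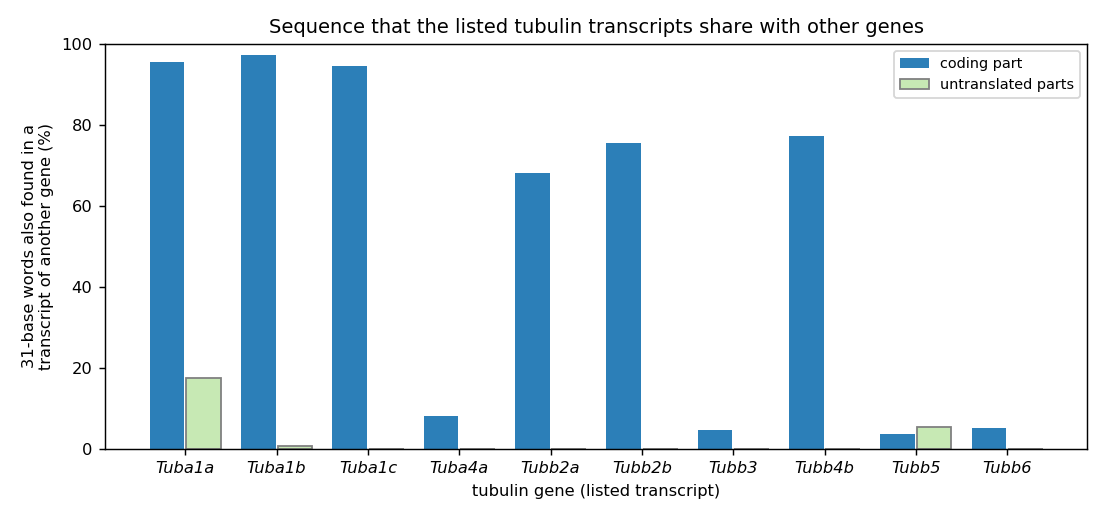
Share of 31-base words (y axis, %) of each listed tubulin transcript (x axis) that also occur in an annotated transcript of another gene, for the coding part (blue) and the untranslated parts (green). The coding parts of *Tuba1a*, *Tuba1b* and *Tuba1c* share 94.6% to 97.2% of their words, and those of *Tuba4a*, *Tubb3*, *Tubb5* and *Tubb6* at most 8.05%.

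Over the whole transcript, the words shared with other genes made up 77.0% for *Tuba1a*, 75.4% for *Tuba1b*, 63.9% for *Tuba1c*, 64.6% for *Tubb4b*, 56.4% for *Tubb2a* and 45.9% for *Tubb2b*. For *Tuba4a*, *Tubb3*, *Tubb5* and *Tubb6* they made up between 3.26% and 4.43%. *Tuba1b* has its largest overlap with *Tuba1c* (64.5% of its words), *Tubb2a* with *Tubb2b* (51.1%) and *Tubb4b* with the pseudogene *Tubb4b-ps1* (54.5%). The estimates of *Tuba1a*, *Tuba1b* and *Tuba1c*, of the *Tubb2a* and *Tubb2b* pair and of *Tubb4b* therefore depend on how the quantification divided shared reads. They are uncertain for this reason. Those of the other 4 members rest almost wholly on sequence found in no other gene. Sharing with other transcripts of the same gene was not counted. The annotation gives 8 transcripts for *Tuba4a*, 4 for *Tubb5* and 2 each for *Tubb3* and *Tubb6*. Among the genes with a shared word, *Gm49450* is listed in the table with a mean of 29.2 normalized counts and shares 41.9% of the words of *Tuba1a*.

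Per length, *Tuba1a* was the most abundant member, with 1657 ± 288 TPM (SD over the 5 libraries), rank 81 of the 12588 genes. It was followed by *Tubb2b* with 834 ± 73.5 TPM, *Tubb5* with 664 ± 156 TPM, *Tuba1b* with 662 ± 160 TPM, *Tubb2a* with 409 ± 110 TPM, *Tubb4b* with 234 ± 38.3 TPM and *Tubb6* with 89.3 ± 40.6 TPM. *Tuba4a* (13.9 ± 8.19 TPM), *Tuba1c* (11.1 ± 2.09 TPM) and *Tubb3* (mean 8.86 TPM, range 7.06 to 10.6 TPM) formed a low group in which neighbours did not differ beyond their spread, and neither did *Tubb5* and *Tuba1b*. *Tubb2b* exceeded *Tubb5* in each library, by a TPM ratio between 1.10 and 1.99. The summed α-tubulin TPM was 0.949 to 1.13 times the summed β-tubulin TPM, and all 10 genes together took 0.349% to 0.551% of the TPM of a library.

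**Figure D2:**
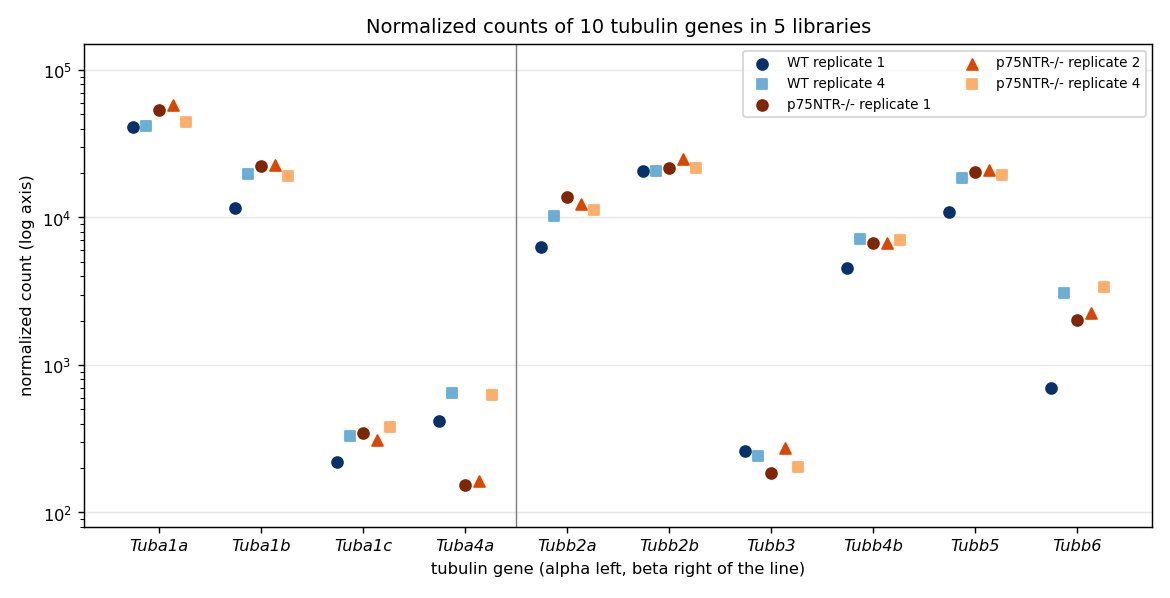
Normalized counts (y axis, log scale) of the 10 tubulin genes (x axis) in 5 libraries, 1 point per library. *Tubb6* spans 698 to 3384 and *Tuba4a* 153 to 646 normalized counts, while *Tubb2b* stays between 20538 and 24813.

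None of the 10 genes was called between the labels. In limma, 0 of 10 passed the threshold and 0 had an unadjusted p under 0.05, where 0.00794% and 2.08% of all gene sums did. edgeR's quasi-likelihood test and DESeq2 on the recovered counts also called 0, with 1 member each, *Tubb2a*, at an unadjusted p under 0.05 (0.0498 and 0.0287). Of all gene sums tested, 260 of 12297 in edgeR and 377 of 12588 in DESeq2 had an unadjusted p under 0.05. The estimated change was positive for 8 of 10 members, where 52.6% of all gene sums with a mean of at least 50 were positive. The median change was 0.34, against 0.02 over those gene sums. All 3 libraries labelled p75NTR-/- lay above both libraries labelled WT for 4 of 10 members (*Tuba1a*, *Tubb2a*, *Tubb2b* and *Tubb5*), against 7.76% of those gene sums, and below them for 0 of 10, against 6.96%. With 2 against 3 libraries an exact permutation test of a single value cannot give a p under 0.1.

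*Tuba1a*, the main α-tubulin gene of these cells, had 40854 and 41460 normalized counts under the WT label (replicates 1 and 4) and 53508, 57981 and 44040 under the p75NTR-/- label (replicates 1, 2 and 4, the order used throughout). The labels did not overlap, but replicate 4 labelled p75NTR-/- was closer to the WT label than to the other libraries of its own. The log2 fold change was 0.32 (standard error, SE, 0.19; limma, adjusted p = 0.93).

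*Tuba1b*, an α-tubulin gene of most dividing cells, had 11513 and 19757 normalized counts under the WT label and 22198, 22696 and 19152 under the p75NTR-/- label. Here replicate 1 labelled WT stood alone below the rest, and replicate 4 labelled WT lay within the range of the other label. The log2 fold change of 0.50 (SE 0.28; limma, adjusted p = 0.93) was 0.11 without replicate 1 labelled WT and 0.89 without replicate 4 labelled WT. In *Tuba1c* replicate 1 labelled WT was also the lowest library, at a low level, with 219 and 328 normalized counts against 347, 310 and 378. The log2 fold change of *Tuba1c* was 0.36 (SE 0.24), or 0.07 without that library and 0.65 without replicate 4 labelled WT.

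*Tuba4a*, the isotype without the terminal tyrosine codon, ran the other way. It had 419 and 646 normalized counts under the WT label and 153, 163 and 623 under the p75NTR-/- label. The low values were those of replicates 1 and 2 labelled p75NTR-/-, while replicate 4 of that label was close to replicate 4 labelled WT. The log2 fold change was −1.05 (SE 0.69; limma, adjusted p = 0.93) and the highest value was 4.21 times the lowest. It was −1.71 without replicate 4 labelled p75NTR-/- and −0.70 without replicate 1 of that label.

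Among the β-tubulin genes, *Tubb5*, the most widely expressed isotype, had 10818 and 18611 normalized counts under the WT label and 20455, 21083 and 19273 under the other. The labels did not overlap, and the gap between the 2 libraries labelled WT was wider than the gap between the labels. Its log2 fold change of 0.51 (SE 0.27; limma, adjusted p = 0.93) was 0.12 without replicate 1 labelled WT and 0.90 without replicate 4 labelled WT.

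*Tubb2a* had 6285 and 10311 normalized counts under the WT label and 13870, 12245 and 11170 under the p75NTR-/- label. All libraries labelled p75NTR-/- were higher, replicate 4 of each label being nearest to the other label. Its log2 fold change of 0.62 (SE 0.27; limma, adjusted p = 0.93) was the one with the lowest unadjusted p among the members. This change was 0.26 without replicate 1 labelled WT and 0.98 without replicate 4 labelled WT.

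*Tubb2b*, its neighbour and a β-tubulin of the developing cortex, hardly varied. It had 20769 and 20538 normalized counts against 21636, 24813 and 21592, a log2 fold change of 0.13 (SE 0.16). *Tubb3*, the neuronal isotype, had 261 and 243 normalized counts under the WT label and 184, 274 and 203 under the p75NTR-/- label, so that the labels overlapped and the log2 fold change was −0.21 (SE 0.23).

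*Tubb4b*, a β-tubulin of many tissues and of cilia, had 4579 and 7090 normalized counts against 6709, 6664 and 7020. Replicate 1 labelled WT was again below the rest. The log2 fold change of 0.25 (SE 0.24) was −0.06 without that library and 0.57 without replicate 4 labelled WT. *Tubb6* had 698 and 3074 normalized counts under the WT label and 2013, 2238 and 3384 under the p75NTR-/- label. The highest library was 4.85 times the lowest, the widest such ratio of the 10 members, and the lowest was replicate 1 labelled WT. By the coefficient of variation *Tuba4a* varied more (59.5% against 46.1%). The log2 fold change of *Tubb6*, 0.76 (SE 0.67; limma, adjusted p = 0.93), turned to −0.31 without replicate 1 labelled WT and was 1.83 without replicate 4 labelled WT.

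Replicate 1 labelled WT was thus the lowest library for most members. It held the lowest value of 7 of 10 members and the highest of 0, while it was lowest for 33.3% and highest for 28.4% of all gene sums with a mean of at least 50. For 4 members (*Tuba1b*, *Tubb2a*, *Tubb5* and *Tubb6*) each of the other 4 libraries was at least 1.5-fold above it, against 6.04% of those gene sums. Replicate 4 labelled WT exceeded it 1.72-fold for *Tuba1b* and *Tubb5*, 1.64-fold for *Tubb2a*, 1.55-fold for *Tubb4b* and 4.41-fold for *Tubb6*, but 1.01-fold for *Tuba1a* and 0.989-fold for *Tubb2b*. The summed β-tubulin level was 43411 and 59868 normalized counts under the WT label and 64868, 67317 and 62641 under the p75NTR-/- label, and the summed α-tubulin level was 53005 and 62190 against 76207, 81150 and 64194. Both sums were lowest in replicate 1 labelled WT, and the labels did not overlap in either. Without that library the median change of the members fell to 0.09, and without replicate 4 labelled WT it rose to 0.61. With 2 libraries under that label, leaving out either moves a gene's estimate equally far in opposite directions. These shifts therefore do not single out a library. Without replicate 1 labelled WT, all 3 libraries labelled p75NTR-/- lay above the remaining one labelled WT for 4 of 10 members. That is the same number as with it, against 20.4% of gene sums.

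**Figure D3:**
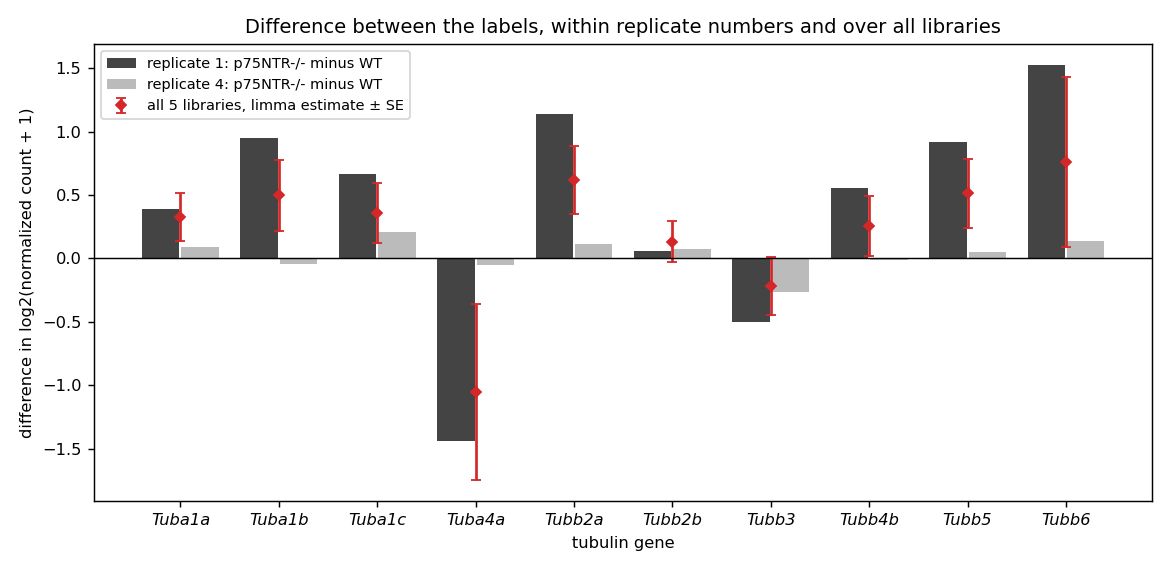
Difference in log2(normalized count + 1) between the labels (y axis) for each tubulin gene (x axis), as p75NTR-/- minus WT within replicate number 1 (dark bars), within number 4 (light bars) and as the limma estimate over all 5 libraries with its standard error (red). Within number 4 all 10 differences lie between −0.26 and 0.21.

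Within replicate number 1, the p75NTR-/- library exceeded the WT library by 0.95 for *Tuba1b*, 0.92 for *Tubb5*, 1.14 for *Tubb2a* and 1.53 for *Tubb6* on the log2 scale. The difference was −1.44 for *Tuba4a*. Within number 4, the corresponding differences were −0.04, 0.05, 0.12, 0.14 and −0.05. The median over the members was 0.61 within number 1 and 0.06 within number 4, against 0.03 and −0.002 over all gene sums with a mean of at least 50. A number holds 1 library of each label, so that the difference between the numbers was not tested.

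Some members followed the replicate number. Both libraries numbered 4 lay above the other 3 for *Tuba4a*, *Tubb4b* and *Tubb6*, that is 3 of 10 members, and below them for 0. Of all gene sums with a mean of at least 50, 23% lay above and 22% below, so that this count is near the background. For *Tuba4a* the mean of the libraries numbered 4 was 1.53 higher on the log2 scale and for *Tubb6* 1.14 higher. *Tuba8*, an α-tubulin gene outside the members, had 13.7 and 58.25 normalized counts under the WT label and 9.89, 9.61 and 80.3 under the other, with the same split at a low level. *Tubb4a*, a β-tubulin of oligodendrocytes and neurons, had 71.6 and 58.25 against 51.45, 54.1 and 69.7. These were 2 of 6 other α- and β-tubulin genes measured, and neither had an unadjusted p under 0.05.

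The composition of the tubulin pool was read from shares of the summed TPM, which do not depend on the size factors. *Tuba1a* made up 77.1% and 66.7% of the α-tubulin TPM in replicates 1 and 4 labelled WT and 70.3%, 71.5% and 68.7% in replicates 1, 2 and 4 labelled p75NTR-/-. *Tuba1b* made up 21.7% and 31.7% against 29.1%, 27.9% and 29.8%. In replicate 1 labelled WT the share of *Tuba1a* was thus above, and that of *Tuba1b* below, the range of the other 4 libraries. The TPM ratio of *Tuba1a* to *Tuba1b* was 3.56 there and 2.11 to 2.56 elsewhere.

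The β-tubulin pool of that library was shifted as well. *Tubb2b* made up 48.5% and 34.9% of the β-tubulin TPM under the WT label and 33.9%, 37.5% and 35.0% under the p75NTR-/- label. *Tubb5* made up 24.3% and 30.4% against 30.9%, 30.7% and 30.1%. In the 4 libraries other than replicate 1 labelled WT, the share of *Tubb5* stayed within a range of 30.1% to 30.9%. *Tubb6* made up 1.68% and 5.37% against 3.24%, 3.47% and 5.64%, and *Tubb3* 0.608% and 0.412% against 0.287%, 0.412% and 0.328%. Replicate 1 labelled WT hence had the highest shares of *Tuba1a*, *Tubb2b* and *Tubb3* and the lowest of *Tuba1b*, *Tubb2a*, *Tubb5* and *Tubb6*. Its share lay outside the range of the other 4 libraries for 7 of 10 members, the exceptions being *Tuba1c*, *Tuba4a* and *Tubb4b*. The shares of a pool add up to the whole, so that these are not separate departures. The count has no background over other genes.

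**Figure D4:**
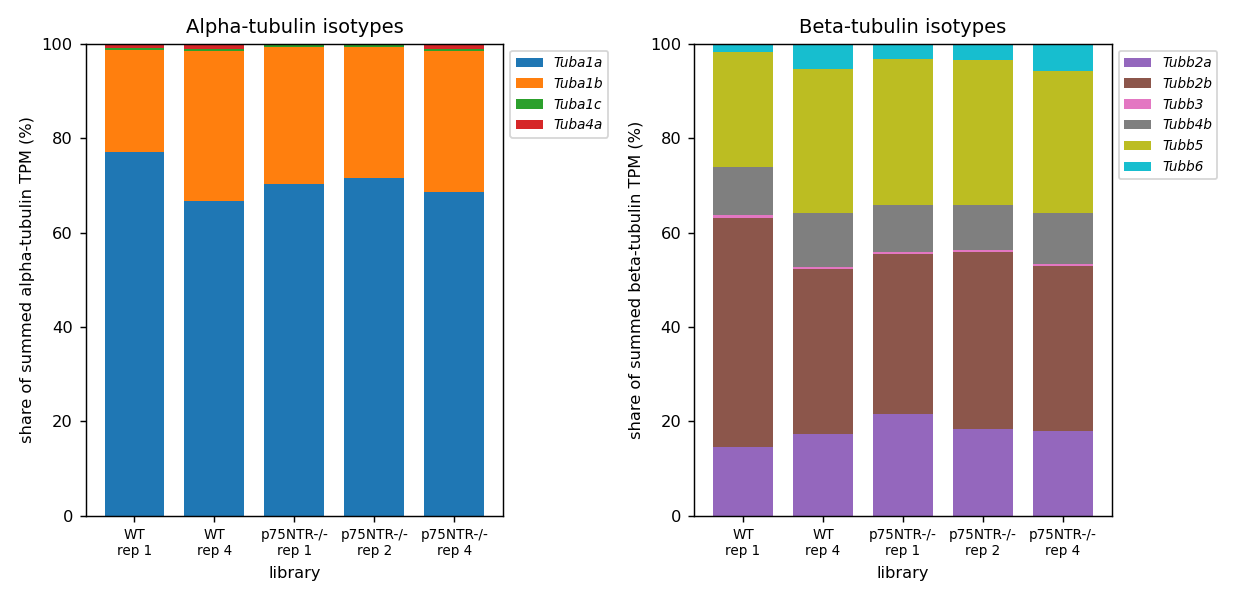
Share of each isotype (y axis, % of the summed TPM of the 4 α-tubulin genes, left, and of the 6 β-tubulin genes, right) in the 5 libraries (x axis). *Tubb2b* makes up 48.5% of β-tubulin in WT replicate 1 and 33.9% to 37.5% in the others.

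Between the labels, the shares of 2 members did not overlap. Shares were computed for the members alone, so this count has no background and is not read as a result. The higher shares of *Tubb3* were those under the WT label, by a narrow margin between replicate 4 labelled WT (0.4125%) and replicate 2 labelled p75NTR-/- (0.4121%), with an exact permutation p of 0.2. In shares of normalized counts these 2 libraries had 0.4066% and 0.4069%, so that the labels overlapped (exact permutation p = 0.3). *Tubb2a* had 14.6% and 17.4% under the WT label and 21.6%, 18.4% and 18.01% under the p75NTR-/- label. This difference of 3.33 percentage points reached the smallest p the design allows (exact permutation test over libraries, two-sided, p = 0.1, or 0.6 adjusted over 10 shares), and it was 1.93 points without replicate 1 labelled WT. *Tuba4a* made up 0.793% and 1.04% of α-tubulin under the WT label, and 0.202%, 0.202% and 0.975% under the other. The difference of −0.458 percentage points had an exact permutation p of 0.3. The exact permutation p-values of the other 7 shares lay between 0.2 and 1.0. The shares of *Tuba1a*, *Tuba1b*, *Tuba1c*, *Tubb2b* and *Tubb6* turned their direction between the labels without replicate 1 labelled WT, to 3.42, −2.79, −0.051, 0.596 and −1.25 percentage points in place of −1.78, 2.23, 0.0064, −6.24 and 0.599. The difference in the share of *Tubb5* was 3.16 points with that library and 0.114 without it.

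The genes that make, fold and modify tubulin were read from fixed lists, and limma called 0 in each list. The folding list holds the subunits of the chaperonin CCT and prefoldin and the cofactors that assemble the dimer. Of its 21 genes 20 were measured, 16 had a positive change and the median was 0.19, with 0 at an unadjusted p under 0.05. *Cct2*, a chaperonin subunit, had 5066 and 7950 normalized counts under the WT label and 7905, 7290 and 7783 under the other. *Tbca*, a cofactor that holds β-tubulin, had 1169 and 1353 against 1417, 1267 and 1460, and *Pfdn5*, a prefoldin subunit, 1969 and 1907 against 1813, 1670 and 2011. Replicate 1 labelled WT was the lowest library for 15 of the 20 genes, against 33.3% of all gene sums with a mean of at least 50. Of those gene sums 52.6% had a positive change. The median of the list was 0.33 within number 1 and −0.0002 within number 4.

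Of the 8 genes of the γ-tubulin ring complex, which nucleates microtubules, 7 had a positive change, against 52.6% of gene sums with a mean of at least 50. In this list 0 had an unadjusted p under 0.05 and the median was 0.17. *Mzt1*, a small subunit of that complex, had 124 and 190 normalized counts against 151, 169 and 161. *Mzt2* had 245 and 236 against 190, 253 and 243, and *Nedd1*, which recruits the complex to the centrosome, 521 and 713 against 783, 787 and 631. *Tubg1*, the main γ-tubulin gene, had 1070 and 1462 normalized counts under the WT label and 1575, 1677 and 1402 under the other, with a log2 fold change of 0.31 (SE 0.21). *Tubd1* (δ-tubulin) had 245 and 213 against 284, 238 and 209, and *Tube1* (ε-tubulin) 48.1 and 141 against 117, 153 and 129. In the list of γ-, δ- and ε-tubulin genes 1 of 4, *Tubg2*, had an unadjusted p under 0.05, against 2.08% of all gene sums. *Tubg2* had 16.7 and 12.48 normalized counts against 5.94, 3.6 and 9.51. It is named after its values were seen, and its mean is below the minimum of 50.

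Of 29 tubulin modifying enzymes 23 were measured, 12 with a positive change, and the median was 0.05. *Sirt2*, a deacetylase of α-tubulin, had 3975 and 2347 normalized counts under the WT label and 2296, 2476 and 2448 under the other, and here replicate 1 labelled WT stood above the rest. *Svbp*, the partner of the detyrosinating vasohibins, had 291 and 276 against 282, 317 and 246, and *Tpgs2*, a subunit of a tubulin polyglutamylase, 654 and 874 against 740, 798 and 906. In this list 1 of 23 genes, *Agbl2*, had an unadjusted p under 0.05, against 2.08% of all gene sums. This deglutamylase, named after its values were seen, had 25.5 and 28.1 against 65.3, 49.2 and 41.2 normalized counts. Its mean of 41.9 is below the minimum of 50.

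The start of the coding sequence encodes the first residues of the chain, which TTC5 binds in the tubulin mRNA loop. This start is shown here for the most abundant α-tubulin gene and for *Tubb5*. The first 30 coding bases in GENCODE M21 are given with the first 4 codons in capitals.
Tuba1a: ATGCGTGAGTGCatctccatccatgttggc
Tubb5: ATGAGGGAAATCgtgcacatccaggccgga
*Ttc5*, which encodes the factor that binds these residues, had 600 and 577 normalized counts under the WT label and 521, 557 and 524 under the other, a log2 fold change of −0.14 (SE 0.15). All libraries labelled p75NTR-/- were lower, by less than the threshold for a call. *Cnot1* and *Cnot10*, subunits of the deadenylase complex in that loop, had log2 fold changes of −0.001 and 0.18. Over the 5 genes of the list 2 had a positive change, and 0 had an unadjusted p under 0.05.

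Lists of proliferation genes and of cell type markers were read beside the members. Of the 12 proliferation genes 12 had a positive change, against 52.6% of all gene sums with a mean of at least 50. None had an unadjusted p under 0.05, and the median was 0.52. Their summed TPM was 548 and 882 in the libraries labelled WT and between 825 and 1182 in those labelled p75NTR-/-. *Pcna*, the sliding clamp of DNA replication, had 2500 and 4510 normalized counts under the WT label and 6050, 5921 and 4287 under the other. Replicate 1 labelled WT was the lowest library for 10 of the 12 genes and for 7 of the 10 tubulin genes, against 33.3% of those gene sums. The median of the proliferation genes was 0.88 within number 1 and −0.08 within number 4. Of the 8 astrocyte markers 0 had a positive change and 1 had an unadjusted p under 0.05, the latter against 2.08% of all gene sums. The median was −0.84, with −1.51 within number 1 and 0.0089 within number 4. Their summed TPM was 1816 to 2635 under the WT label and 1246 to 1903 under the other. *Slc1a3*, a glutamate transporter of astrocytes and radial glia, had 17930 and 18280 normalized counts against 14544, 11597 and 17342.

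**Figure D5:**
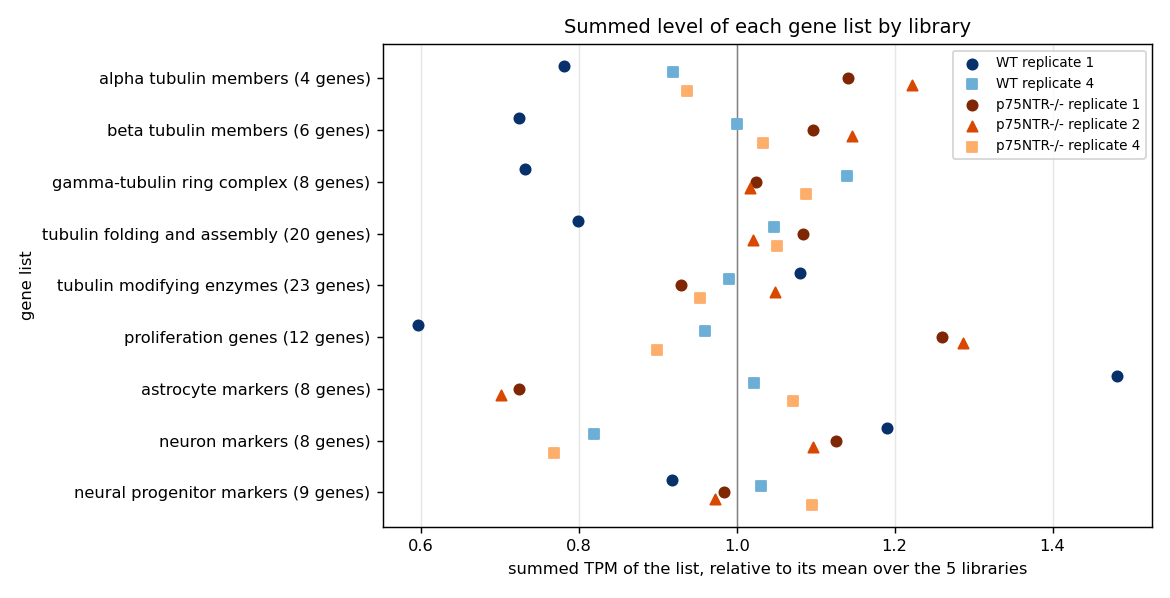
Summed TPM of each gene list relative to its mean over the 5 libraries (x axis), by list (y axis) and library (points). WT replicate 1 has the lowest sum for both tubulin lists, the folding list, the ring complex, the proliferation genes and the neural progenitor markers. Gene by gene it is lowest for 3 and highest for 4 of the 9 progenitor markers, and 3 of these 9 had a positive change. WT replicate 1 has the highest sum for the astrocyte markers, the neuron markers and the tubulin modifying enzymes. Gene by gene it is highest for 4 and lowest for 0 of the 8 astrocyte markers. It is highest for 3 and lowest for 3 of 8 neuron markers, and highest for 7 and lowest for 8 of 23 modifying enzymes.

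Of 12 neuron markers 8 were measured, 3 with a positive change, and *Dcx*, *Rbfox3*, *Stmn2* and *Syt1* were not analysed here. Their summed TPM was 816 to 1185 under the WT label and 766 to 1122 under the other, most of it *Map2* with a mean of 817 TPM. Of the 9 oligodendrocyte lineage markers 6 were measured (summed TPM 450 to 906 and 440 to 1025), with *Olig1* at a mean of 411 TPM. The 5 ependymal markers summed to 23.0 to 28.1 TPM and 22.5 to 23.3 TPM, of which *Foxj1* had a mean of 20.5 TPM. Of the 6 endothelial and mural markers only *Kdr* was measured, at 0.39 to 0.66 TPM, and 0 of 6 microglia markers were. In bulk libraries fewer cells of a type and less RNA per cell cannot be told apart. The part of the cell cycle or of the cell type makeup in the tubulin differences was not tested.

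The genes whose library profile lay nearest to *Tuba1a* and *Tubb3* were found by the root mean square difference of centred log2 values over the 5 libraries, among 10786 gene sums with a mean of at least 50. For *Tuba1a* they were *Neurl4*, *Ddx23*, *Pycrl*, *Opa3* and *Tmem132a*, with differences between 0.014 and 0.033. *Neurl4* had 883 and 909 normalized counts under the WT label and 1189, 1258 and 963 under the other. For *Tubb3* they were *Ccl25*, *Lrrc20*, *Hip1r*, *Prrg1* and *Ppfia3*, with differences between 0.040 and 0.076. The member nearest to *Tuba1a* was *Tubb2b* (0.131, rank 730), ahead of *Tubb4b* (0.249) and *Tuba1b* (0.259). With 5 libraries many genes share any given profile.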

How the data were processed

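Polyadenylated RNA of 5 libraries (500 ng RNA each, stranded libraries) was sequenced. The authors used Salmon 0.10.2 with Ensembl transcripts (GRCm38.p6), then DESeq2 1.22.0 in R 3.6.1. The deposited signal holds counts over the size factor, raised by 0.5, which was subtracted. The deposited TPM columns were used for levels and shares. They are recorded as a score, since the file repeats transcripts on 303 of its 22530 lines, which were dropped. The deposited baseMean (a score), log2 fold changes and p-values are the authors' own comparison and were not used. In every library 100% of low values were whole multiples of a common step (tolerance 0.02 counts), which gave the counts back, and the limit of 3 counts was 2.94 to 3.60 normalized counts.

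Of 22227 transcripts 22199 (99.9%) matched GENCODE M21 by identifier. limma 3.58.1 was run in R 4.3.3 with a pseudocount of 1 over all 12588 gene sums, a scale that understates changes of low genes. edgeR 4.0.16 and DESeq2 1.42.0 were run on recovered counts. In simulated gene sums, limma called 6 of 50 genes changed 2-fold and 49 of 50 changed 4-fold. The simulation gave every gene the same dispersion and no difference between libraries beyond depth. It therefore does not give the power in these libraries, and a missing call does not exclude a change of either size. Shared words and identities were computed with Python 3.11.15 and Biopython 1.88. The text names all members, the 3 genes of highest mean TPM per pathway list and 1 per marker list, called list genes (0), *Ngfr*, and the 5 genes nearest to *Tuba1a* and *Tubb3*. *Tubg2*, *Agbl2*, *Prom1* and *Gm49450* are outside this rule. The members and lists were chosen with earlier results of these data known. Nothing says that a replicate number marks a shared litter or day, and p-values measure the spread between these libraries. The coding ends of the other 3 members are not reported here.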

Additional observations from a re-analysis of the deposited data

How the results depend on the processing

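The members called stayed at 0 of 10 under every alternative run. Without WT replicate 4, which leaves 1 library labelled WT, the median change of the members was 0.61, against 0.02 over gene sums with a mean of at least 50. Then 8 of 10 members lay higher without overlap (35% of those gene sums) in place of 4 (7.76%). Between 4 and 8 did when each library was left out. Positive changes numbered 6 to 8. Without WT replicate 1, the changes of *Tubb4b* and *Tubb6* reversed to −0.061 and −0.31. Their ranges with a library left out were −0.061 to 0.57 and −0.31 to 1.83. The summed β-tubulin change of 0.33 (log2 of the ratio of means) lay between 0.12 and 0.58 with a library left out, and the α-tubulin change of 0.36 between 0.25 and 0.48. With a library left out, the share differences (percentage points, p75NTR-/- minus WT) ranged from −6.97 to 3.42 for *Tuba1a*, −2.79 to 7.24 for *Tuba1b*, −0.051 to 0.064 for *Tuba1c*, −13.1 to 0.596 for *Tubb2b*, 1.93 to 4.73 for *Tubb2a*, 0.114 to 6.20 for *Tubb5*, −1.32 to −0.043 for *Tubb4b*, −0.266 to −0.070 for *Tubb3*, −0.716 to −0.329 for *Tuba4a* and −1.25 to 2.44 for *Tubb6*. Without WT replicate 1 those of *Tuba1a*, *Tuba1b*, *Tuba1c*, *Tubb2b* and *Tubb6* reversed, to 3.42, −2.79, −0.051, 0.596 and −1.25 in that order. Without p75NTR-/- replicate 4 those of *Tuba1c* and *Tubb6* reversed, to −0.051 and −0.163.

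Over all genes, 1 gene sum and 3 transcripts were called. The counts were 0 and 0 with the replicate block on the libraries numbered 1 and 4, 0 and 0 with edgeR, and 7 and 28 with DESeq2. With a library left out they were 0 to 1 gene sums and 0 transcripts. Transcript calls numbered 0 with a pseudocount of 5, 0 with an intensity trend and 31 without a minimum of the mean. The cause was not tested. The replicate block changed no member's call. Differences between replicates 4 and 1 correlated between the labels with r = 0.40 across 10786 gene sums, which are not independent, and 2 shared numbers do not show pairing. As each member has 1 listed transcript, leaving out minor transcripts changed nothing.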
